A study of Mus musculus with 6 samples.

Results

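The ESCRT machinery was followed through 10 genes in colon macrophages that lacked or carried gasdermin D: Chmp1a, Chmp2a, Chmp2b, Chmp3, Chmp4b and Chmp5, which encode subunits of ESCRT-III, Vps4a and Vps4b, which encode the VPS4 ATPases, Pdcd6ip, which encodes ALIX, and Tsg101, which encodes a subunit of ESCRT-I. The genes were chosen by symbol, as ESCRT components with a known part in membrane repair. All 10 had 1 row in each table of 17067 genes, and all 10 were among the 10005 genes tested. The cells were colon macrophages of C57BL/6 mice aged 10 weeks, sorted for CD45, CD11b and F4/80, after dextran sulfate sodium (DSS) had been given to induce colitis in both groups. There were 3 Gsdmd-/- and 3 wild-type (WT) samples, and all animals had received DSS, so no sample represents an uninflamed colon. The labels do not say how the Gsdmd-/- allele was made, which exons it lacks, or whether a sample is 1 mouse or a pool. Nor do they say that samples are from different animals, so the p-values cover only variation among these 6 samples, part or all of which may be technical.

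ESCRT proteins bud and cut membranes from the cytosolic side, away from the cytoplasm, in the formation of multivesicular bodies, in the last step of cell division, in virus release and in the repair of wounds in the plasma membrane. At a wound, calcium entering the cell brings ALIX and ESCRT-I to the membrane, ESCRT-III subunits assemble into filaments that narrow the neck of a bud, and VPS4 pulls the filaments apart and completes the cut. In cells with active gasdermin D, this route is known to shed membrane that carries gasdermin pores as vesicles and to delay pyroptosis, the lytic death of inflammatory macrophages.

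Levels are given as FPKM, a unit inferred here, in which fragment numbers are scaled for transcript length and library size. Comparisons between genes are limited by the trend on length and GC content described below. Low values moved in steps that put the libraries at roughly 20.1 M to 20.6 M fragments in Gsdmd-/- and 19.5 M to 20.8 M in WT samples. Only depths in a limited range around these values were tried, so depths outside that range were not examined. Gsdmd itself was at 28.5, 29.0 and 29.7 FPKM in Gsdmd-/- samples and at 97.7, 99.4 and 97.4 FPKM in WT samples, so transcript was 0.296-fold as abundant in Gsdmd-/- samples and still detected there. Across the 10005 tested genes, correlations between samples (across genes, which are not independent replicates) were 0.997 to 0.998 within groups and 0.967 to 0.975 between groups. Transcripts of the gate were present in all samples, with Itgam (CD11b) at 87.6 to 95.6 FPKM in Gsdmd-/- and 173 to 179 FPKM in WT samples and Adgre1 (F4/80) at 212 to 222 FPKM in Gsdmd-/- and 287 to 295 FPKM in WT samples.

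Marker lists of other cell types differed between the groups. Counts of markers that rose or fell are from the values as deposited, where 40.6% of all tested genes rose and 36.9% fell. These counts were not taken on the other scales described below, on which calls of other genes changed. Of 11 fibroblast markers 7 were tested and 7 rose, with a summed level over the list of 89.3 to 91.1 FPKM in Gsdmd-/- and 33.3 to 34.8 FPKM in WT samples. The markers not tested, Lum, Pdgfra, Pdgfrb and Thy1, were at or under 0.74 FPKM in every sample. Of 5 smooth muscle markers Myh11 and Des were at or under 0.04 FPKM and Actg2 at or under 0.76 FPKM in every sample, and were not tested. The other 2 rose, and the sum of the 5 was 11.7 to 12.8 FPKM in Gsdmd-/- and 2.15 to 4.1 FPKM in WT samples. For 5 endothelial markers, of which 3 were tested and 1 fell, it was 33.1 to 38.5 FPKM in Gsdmd-/- and 62.5 to 66.6 FPKM in WT samples. Kdr carried this difference, at 24.5 to 28.9 FPKM in Gsdmd-/- and 54.6 to 57.7 FPKM in WT samples, whereas Vwf and Cdh5 overlapped between groups and Pecam1 was at 0.72 to 1.04 FPKM in Gsdmd-/- and 0.35 to 0.38 FPKM in WT samples. Summed epithelial, mast cell, T cell, dendritic cell and B cell markers were at or under 10.5 FPKM in every sample; 2 of 6 T cell markers and 1 of 5 dendritic cell markers rose, and 1 of 9 epithelial and 1 of 4 mast cell markers fell. Neutrophil markers, of which 2 of 7 were tested and rose, summed to 40.7 to 44 FPKM in Gsdmd-/- and 31 to 35.2 FPKM in WT samples. Csf3r made up most of this sum, at 36.44 to 38.02 FPKM in Gsdmd-/- and 28.49 to 31.35 FPKM in WT samples. Ly6g and Mpo were at or under 0.06 FPKM and S100a8 and S100a9 at or under 1.91 FPKM in every sample. Macrophage markers, of which 10 of 10 were tested, summed to 9309 to 9411 FPKM in Gsdmd-/- and 8246 to 8763 FPKM in WT samples. Of these 4 rose (Lyz2, Cd68, C1qa and Fcgr1), with Lyz2 alone at 5444 to 5484 FPKM in Gsdmd-/- and 4838 to 5186 FPKM in WT samples, and 5 fell (Ptprc, Itgam, Adgre1, Csf1r and Mertk). No marker with a row was at 0 in all 6 samples. ESCRT genes are expressed in all of these cell types, and the part of other cells in the changes described below was not tested. In sorted bulk RNA, fewer cells of a type and less RNA per cell cannot be told apart.

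Among the ESCRT-III genes, Chmp2a changed most. CHMP2A binds the CHMP4 filament late, helps to recruit VPS4, and is needed for ESCRT-III to cut. Its transcript was at 147, 147 and 143 FPKM in Gsdmd-/- samples, against 72.3, 75.1 and 76.2 FPKM in WT samples. Every Gsdmd-/- sample lay far above every WT sample. The level was 1.95-fold higher in Gsdmd-/- macrophages (145.6 ± 2.66 FPKM in Gsdmd-/- and 74.5 ± 2 FPKM in WT, SD, n = 3 each), a log2 change of 0.96 on the log2(FPKM + 1) scale (SE 0.031, limma adjusted p = 6.04e-10), above 99.1% of all tested genes. Chmp2a (gene 68953) lies on chromosome 7 at 13032006 to 13034777, minus strand, in GRCm38.p6.

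Chmp4b, which encodes the main filament-forming subunit of ESCRT-III, had the highest level of the 10 genes in both groups and rose. It was at 326, 319 and 328 FPKM in Gsdmd-/- samples and at 236, 251 and 251 FPKM in WT samples, without overlap. The mean was 324.2 ± 4.62 FPKM in Gsdmd-/- and 245.9 ± 8.91 FPKM in WT macrophages (SD, n = 3 each), 1.32-fold higher in Gsdmd-/- (log2 change 0.40, SE 0.0305, limma adjusted p = 1.98e-07). The gene (75608) is on chromosome 2 at 154657026 to 154694783, plus strand. Its paralogue Chmp4c was nearly silent, at 0 to 0.06 FPKM in Gsdmd-/- and 0.03 to 0.06 FPKM in WT samples, and did not enter the test.

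Chmp1a and Chmp3 rose by smaller amounts. CHMP3 acts with CHMP2A to shape the filament, and CHMP1A is a late subunit that binds the microtubule-interacting domain of VPS4. Chmp1a was at 49.9, 49.4 and 49.9 FPKM in Gsdmd-/- samples and at 42.5, 44.0 and 43.1 FPKM in WT samples (log2 change 0.20, SE 0.0329, limma adjusted p = 0.00014). Chmp3 was at 30.6, 30.8 and 30.8 FPKM in Gsdmd-/- samples and at 26.7, 26.7 and 27.4 FPKM in WT samples (log2 change 0.18, SE 0.0362, limma adjusted p = 0.000546). For both genes the samples of a group lay within 2 FPKM of one another and the groups did not overlap. Chmp1a (234852) is on chromosome 8 at 123204261 to 123212788, minus strand, and Chmp3 (66700) is on chromosome 6 at 71543831 to 71582609, plus strand.

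Chmp2b, the paralogue of Chmp2a, went the other way. It encodes a subunit that binds membrane and VPS4 and whose truncation causes frontotemporal dementia in humans. It was at 25.6, 27.6 and 25.9 FPKM in Gsdmd-/- samples, against 31.5, 30.2 and 29.2 FPKM in WT samples. The groups were close but did not overlap (26.4 ± 1.09 FPKM in Gsdmd-/- and 30.3 ± 1.16 FPKM in WT, SD, n = 3 each, log2 change -0.19, SE 0.0442, limma adjusted p = 0.00167). Chmp5, which encodes a subunit that binds the VPS4 cofactor LIP5, did not pass the test. It was at 61.3, 51.7 and 57.3 FPKM in Gsdmd-/- samples and at 57.9, 56.2 and 60.7 FPKM in WT samples (log2 change -0.04, SE 0.0556, limma adjusted p = 0.524), with overlapping groups and the widest spread of the 10 genes in Gsdmd-/- samples. Chmp2b (68942) is on chromosome 16 at 65539128 to 65562762, minus strand, and Chmp5 (76959) is on chromosome 4 at 40948553 to 40965302, plus strand.

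The genes of the 2 VPS4 ATPases moved in opposite directions. Vps4a was at 21.3, 18.9 and 21.6 FPKM in Gsdmd-/- samples and at 16.4, 16.6 and 16.3 FPKM in WT samples (log2 change 0.31, SE 0.0522, limma adjusted p = 0.000178). Vps4b was at 22.7, 22.3 and 24.5 FPKM in Gsdmd-/- samples and at 32.1, 29.2 and 32.0 FPKM in WT samples (log2 change -0.41, SE 0.0498, limma adjusted p = 1.12e-05). The groups did not overlap for either gene. Vps4a (116733) is on chromosome 8 at 107031269 to 107045760, plus strand, and Vps4b (20479) is on chromosome 1 at 106770788 to 106796725, minus strand.

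Of the genes that bring ESCRT-III to the membrane, Pdcd6ip fell and Tsg101 did not pass the test. Pdcd6ip, which encodes ALIX, an adaptor that binds CHMP4 and, with calcium, the protein ALG-2, was at 38.0, 37.5 and 37.8 FPKM in Gsdmd-/- samples and at 49.0, 49.7 and 49.7 FPKM in WT samples (log2 change -0.38, SE 0.0325, limma adjusted p = 5.09e-07). Samples of each group lay within 1 FPKM of one another. Tsg101, whose protein binds ubiquitin and late-domain motifs, was at 47.6, 51.2 and 45.6 FPKM in Gsdmd-/- samples and at 45.4, 47.9 and 45.5 FPKM in WT samples (log2 change 0.05, SE 0.0447, limma adjusted p = 0.283), and its groups overlapped. Pdcd6ip (18571) is on chromosome 9 at 113651744 to 113708279 and Tsg101 (22088) on chromosome 7 at 46888949 to 46926320, both on the minus strand.

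**Figure D1:**
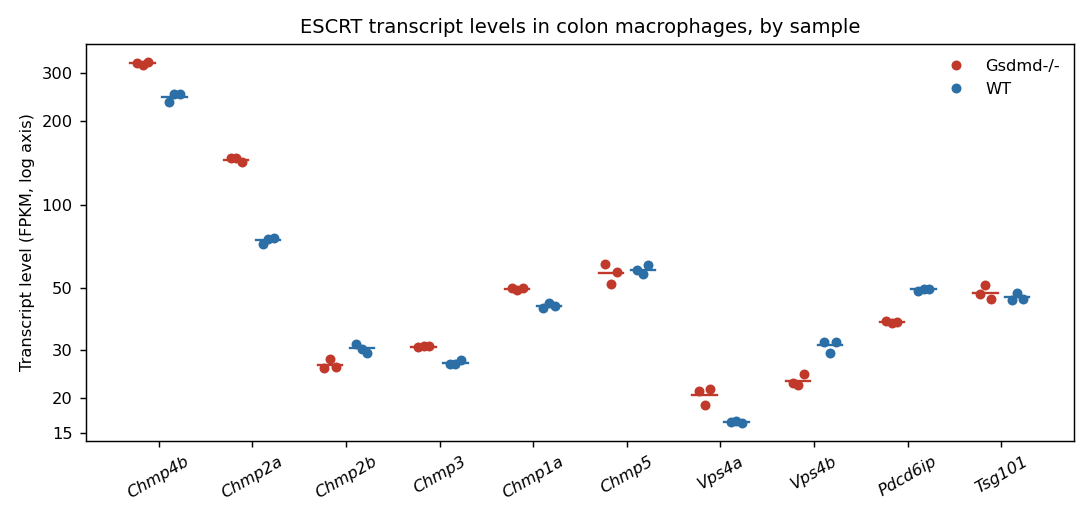
Transcript levels of the 10 ESCRT genes in each sample (FPKM, log axis), with Gsdmd-/- samples in red left of WT samples in blue and a line at each group's mean. Chmp4b is highest in every sample, Chmp2a shows the widest gap between groups, and the groups overlap for Chmp5 and Tsg101.

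In all, 5 of the 10 genes rose and 3 fell (limma, adjusted p under 0.05), where 40.6% of all tested genes rose and 36.9% fell, 77.5% in all. The groups did not overlap for 8 of the 10 genes, with 5 higher and 3 lower, where they did not for 79.4% of all tested genes, with 41.2% higher and 38.3% lower. A count of 8 of 10 is thus near the background and says nothing particular about ESCRT genes. The median log2 change was 0.12 for the 10 genes and 0.03 for all tested genes. The order of the changes, from -0.41 for Vps4b to 0.96 for Chmp2a, spanned the 19.5th to the 99.1st percentile of all tested genes.

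Transcript length and GC content moved with the changes. Over 9853 tested genes with known transcripts the log2 change had a Spearman rho of -0.603 with mean coding transcript length and of 0.462 with GC content, given as a description across genes. Genes in the shortest length decile (321 to 952 bases) had a median log2 change of 0.51, and those in the longest (4599 bases and more) one of -0.46. Chmp2a, with a mean transcript length of 803 bases and 53.1% GC, was among the shortest. Vps4b and Pdcd6ip were the longest of the 10, at 4586 and 4587 bases, with 42.8% and 48.3% GC.

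**Figure D2:**
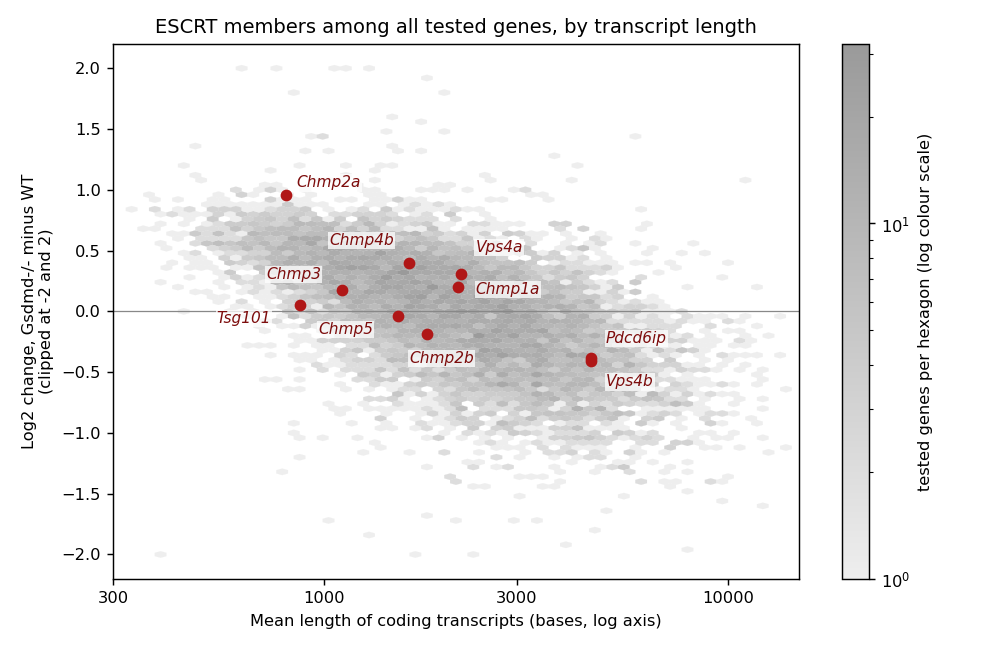
Log2 change (Gsdmd-/- minus WT, of log2(FPKM + 1)) against mean length of coding transcripts (bases, log axis). Grey hexagons, shaded by number of genes, hold the 9853 tested genes with a known length, and the 10 ESCRT genes are red. Short transcripts lie mostly above 0 and long ones mostly below it; Vps4b and Pdcd6ip sit within the cloud of genes of their length and Chmp2a lies at its upper edge. The axis runs from 300 to 15000 bases and leaves out 2 of the 9853 genes, and changes beyond -2 and 2 are drawn at those limits.

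With a smooth trend on length and GC removed from each sample, 4 of the 10 genes rose and 1 fell, where 33.6% of 9853 genes rose and 31.4% fell, 64.9% in all. Chmp2a stayed highest with a log2 change of 0.50 (limma adjusted p = 6.44e-08), above 94.2% of genes. Vps4a was at 0.31 as before (adjusted p = 0.000222), and Chmp4b kept its direction at 0.17 (adjusted p = 0.000171). The direction of Vps4b turned, to 0.11 (adjusted p = 0.0185). Pdcd6ip was at 0.00251 (adjusted p = 0.95) and Chmp2b at -0.01 (adjusted p = 0.915), so neither passed.

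The remaining genes also depended on this step. Chmp1a (0.06, limma adjusted p = 0.0855) and Chmp3 (-0.04, adjusted p = 0.35) no longer passed, and Tsg101, one of the shortest of the 10 with 869 bases, was at -0.18 (adjusted p = 0.00194). Chmp5 did not pass on either scale (0.03, adjusted p = 0.67). Chmp2a, Chmp4b and Vps4a were thus the 3 members that passed in the same direction with and without the trend, with Chmp2a and Chmp4b changed over 1.5 times more as deposited. What produced the trend was not tested.

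**Figure D3:**
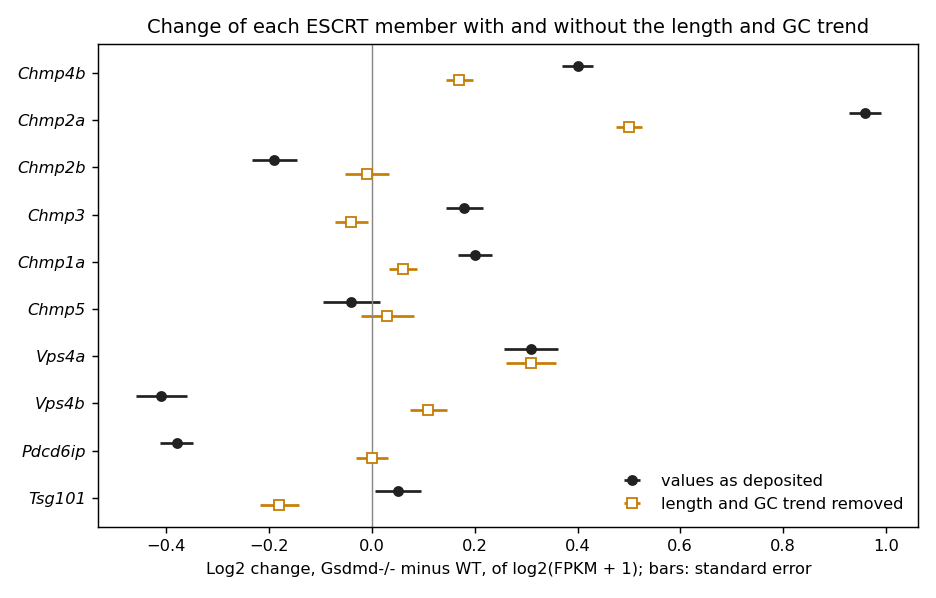
Log2 change of each ESCRT gene (Gsdmd-/- minus WT) from the values as deposited (filled circles) and after removal of the trend on length and GC (open squares), with standard errors from limma. Chmp2a, Chmp4b and Vps4a lie right of 0 on both, and Vps4b moves from -0.41 to 0.11.

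A rescaling to TPM, which sets every library to the same sum, gave a median change over all genes of -0.17 on the log2 scale, against 0.03 as deposited. Summed values had been 551502 to 565388 FPKM in Gsdmd-/- and 476271 to 485411 FPKM in WT samples. Relative to the median of all genes, no member's change moved by more than 0.02 between the scales, but calls against 0 did: 2 of the 10 genes rose and 5 fell in TPM, where 25.0% of all genes rose and 51.0% fell, 76.0% in all. In TPM Chmp2a (0.74) and Chmp4b (0.18) rose, and Chmp2b (-0.42), Vps4b (-0.63), Pdcd6ip (-0.60), Chmp5 (-0.26) and Tsg101 (-0.17) fell. Vps4a (0.10, limma adjusted p = 0.134), Chmp1a (-0.02, adjusted p = 0.662) and Chmp3 (-0.03, adjusted p = 0.521) did not pass in TPM.

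Ratios within a library do not depend on library scaling, and were taken for the 2 pairs of paralogues. The Chmp2a to Chmp2b ratio was 5.75, 5.33 and 5.51 in Gsdmd-/- samples and 2.29, 2.49 and 2.61 in WT samples. The Vps4a to Vps4b ratio was 0.939, 0.849 and 0.881 in Gsdmd-/- samples and 0.512, 0.569 and 0.51 in WT samples. Neither ratio overlapped between the groups, and both were higher in Gsdmd-/- samples, by 1.15 for Chmp2a to Chmp2b and 0.72 for Vps4a to Vps4b on the log2 scale, where the pooled SD of the samples was 0.0748 and 0.0788. The exact two-sided permutation test gave p = 0.1 for each, also after adjustment over the 2 ratios, and 0.1 is the smallest p that 3 samples against 3 allow. After trend removal the differences were 0.50 and 0.20, in the same direction.

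The promoter windows of these paralogue pairs are shown because the pairs moved in opposite directions as deposited. With the trend removed Vps4a and Vps4b both rose (0.31 and 0.11) and Chmp2b was at -0.01. Whether the windows bear on the levels was not tested. Windows run from 250 bases before to 50 bases after a RefSeq start site in GRCm38.p6, which for the 4 genes shown is the outer start of the gene, and capitals mark matches, on either strand, to an ETS core (CCGGAA), a GC box (GGGCGG), an NRF1 motif (GCGC and TGCGC with any 1 base between them), a cAMP response element core, CRE (TGACGT), an E-box (CACGTG) or a TATA motif (TATAAA). They lie at chr7:13034728-13035027 (minus strand, Chmp2a), chr16:65562713-65563012 (minus, Chmp2b), chr8:107031019-107031318 (plus, Vps4a) and chr1:106796676-106796975 (minus, Vps4b).
Chmp2a: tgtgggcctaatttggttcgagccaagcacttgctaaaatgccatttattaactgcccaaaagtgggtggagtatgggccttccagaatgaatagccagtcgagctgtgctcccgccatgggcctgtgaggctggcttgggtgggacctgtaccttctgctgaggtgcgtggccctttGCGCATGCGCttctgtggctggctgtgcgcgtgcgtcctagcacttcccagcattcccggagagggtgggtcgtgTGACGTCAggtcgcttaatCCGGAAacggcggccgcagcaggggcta
Chmp2b: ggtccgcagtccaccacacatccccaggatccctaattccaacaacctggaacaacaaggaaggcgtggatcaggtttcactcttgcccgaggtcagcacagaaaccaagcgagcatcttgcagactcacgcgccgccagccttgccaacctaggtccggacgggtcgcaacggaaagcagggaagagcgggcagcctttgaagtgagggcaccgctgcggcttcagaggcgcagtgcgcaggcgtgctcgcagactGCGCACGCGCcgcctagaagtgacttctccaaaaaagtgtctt
Vps4a: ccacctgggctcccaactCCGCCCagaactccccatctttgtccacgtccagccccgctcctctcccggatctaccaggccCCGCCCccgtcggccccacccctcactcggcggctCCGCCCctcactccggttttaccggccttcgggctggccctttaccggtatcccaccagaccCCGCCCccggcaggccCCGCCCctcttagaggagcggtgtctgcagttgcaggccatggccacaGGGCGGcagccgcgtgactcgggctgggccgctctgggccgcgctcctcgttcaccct
Vps4b: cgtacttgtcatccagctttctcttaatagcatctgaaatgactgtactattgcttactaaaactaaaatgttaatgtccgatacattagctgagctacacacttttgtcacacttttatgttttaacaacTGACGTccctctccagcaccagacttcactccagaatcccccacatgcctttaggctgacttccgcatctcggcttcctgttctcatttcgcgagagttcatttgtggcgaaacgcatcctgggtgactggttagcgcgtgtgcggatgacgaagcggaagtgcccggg

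The Chmp2a window held an NRF1 motif, 2 CRE matches on opposite strands that overlap in a palindrome, and an ETS core, while the Chmp2b window held an NRF1 motif. The Vps4a window held 6 GC boxes at 71.7% GC, and the Vps4b window a single CRE core at 47% GC. Of 32817 RefSeq windows of this length, 14.9% held the ETS core, 35.6% a GC box, 4.59% the NRF1 motif, 7.51% a CRE core, 7.15% an E-box and 13.6% the TATA motif. The 10 genes have 11 windows (Chmp3 has 2). The windows of Chmp3, Pdcd6ip and Tsg101 lie at start sites inside the gene's span, for Tsg101 6351 bases from its outer start. In the 11 windows 7 genes had an ETS core, 6 a GC box, 5 the NRF1 motif, 2 a CRE core, 1 an E-box and 0 the TATA motif, and counts by window were the same. All windows had a median of 52.7% GC and 7 CG dinucleotides. The 11 windows ran from 47% to 71.7% GC and from 14 to 39 CG dinucleotides. Motif shares were not compared with windows of like composition, so no enrichment is read from these counts. These are letter matches, and no binding was measured.

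Because FPKM values are per length, transcripts of the 6 CHMP genes followed here can be set side by side as a pool. Other expressed ESCRT-III genes are left out of it. In Gsdmd-/- and WT samples these were Ist1 (74.7 and 78.7 FPKM), Chmp1b (35.2 and 44.7 FPKM), Chmp6 (18.8 and 13.8 FPKM) and Chmp7 (12.9 and 11.2 FPKM). The shares below thus hold only within the 6 genes, and depend on which genes are counted. The 6 CHMP genes summed to 640.2, 625.6 and 634.4 FPKM in Gsdmd-/- samples and to 466.4, 483.2 and 487.5 FPKM in WT samples. This was 1.32-fold higher in Gsdmd-/- macrophages. The sum over all genes was also higher in Gsdmd-/- samples, at 551502 to 565388 FPKM, against 476271 to 485411 FPKM in WT samples. A sum is weighted to abundant genes, and the median log2 change of all tested genes was 0.03. Chmp4b made up 51.2% ± 0.446 of the pool of 6 CHMP genes in Gsdmd-/- and 51.3% ± 0.741 in WT samples (SD, n = 3 each), a difference of less than the spread between samples. Chmp2a made up 23% ± 0.522 in Gsdmd-/- and 15.6% ± 0.0631 in WT samples, which was 7.43 percentage points more. The other 4 genes made up smaller shares in every Gsdmd-/- sample than in any WT sample, with 8.95% in Gsdmd-/- and 12.2% in WT for Chmp5, 7.85% in Gsdmd-/- and 9.02% in WT for Chmp1a, 4.17% in Gsdmd-/- and 6.33% in WT for Chmp2b, and 4.85% in Gsdmd-/- and 5.62% in WT for Chmp3. Shares of a pool are bound to sum to the whole, so a larger share for Chmp2a lowers the rest, and they carry the same trend on length as the levels.

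**Figure D4:**
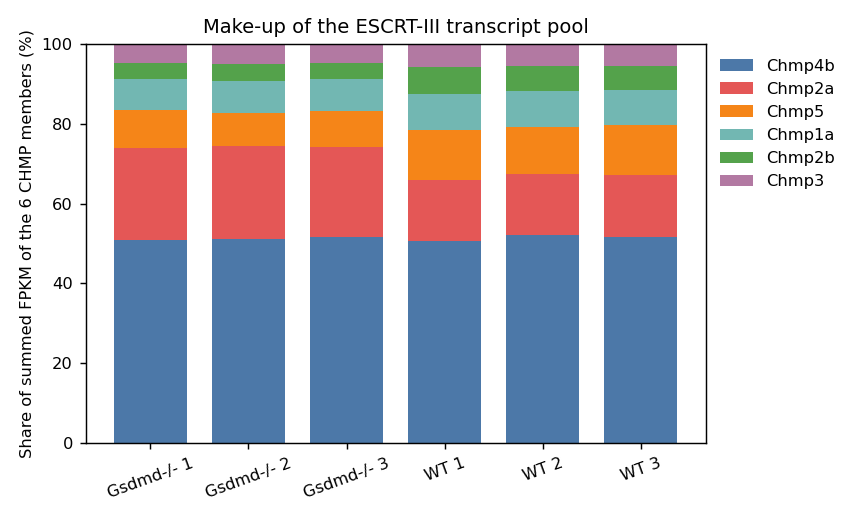
Share of each CHMP gene in the summed FPKM of the 6 CHMP genes (percent, stacked) in each Gsdmd-/- sample (left) and each WT sample (right). The Chmp4b share is 50.9% to 51.7% in Gsdmd-/- and 50.5% to 52% in WT samples, and the Chmp2a share is 22.5% to 23.5% in Gsdmd-/- and 15.5% to 15.6% in WT samples.

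In both groups Chmp4b, Chmp2a and Chmp5 were the 3 highest of the 10 genes and Vps4a the lowest. In Gsdmd-/- samples they were followed by Chmp1a (49.7 FPKM), Tsg101 (48.1 FPKM), Pdcd6ip (37.8 FPKM), Chmp3 (30.7 FPKM), Chmp2b (26.4 FPKM), Vps4b (23.2 FPKM) and Vps4a (20.6 FPKM), and Chmp1a and Tsg101 overlapped in range. In WT samples the order was Pdcd6ip (49.5 FPKM), Tsg101 (46.3 FPKM), Chmp1a (43.2 FPKM), Vps4b (31.1 FPKM), Chmp2b (30.3 FPKM), Chmp3 (26.9 FPKM) and Vps4a (16.4 FPKM), and Vps4b and Chmp2b overlapped. Pdcd6ip and Vps4b thus stood lower in the order in Gsdmd-/- samples. Across all tested genes the 10 genes lay between the 65.9th percentile of level (Vps4a) and the 96.8th (Chmp4b). The values imply some 574 fragments for Chmp3 in its lowest library and 10616 for Chmp4b in its highest.

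The rest of the ESCRT pathway was described with a list of 29 genes, of which 27 were tested. Of these 14 rose and 6 fell, with a median log2 change of 0.13, beside 40.6% and 36.9% of all tested genes and their median of 0.03. After removal of the trend the counts were 14 and 7 and the median 0.09, where 33.6% of 9853 genes rose and 31.4% fell. Vps37d, an ESCRT-I gene, was at 0.07 to 0.23 FPKM in Gsdmd-/- and 0 to 0.04 FPKM in WT samples and, like Chmp4c, did not enter the test.

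Genes of ESCRT-I and ESCRT-II, which link ubiquitinated cargo to ESCRT-III, included the larger rises. Snf8, of ESCRT-II, was at 57.3 ± 1.21 FPKM in Gsdmd-/- and 32.2 ± 1.86 FPKM in WT macrophages (SD, n = 3 each, log2 change 0.81, limma adjusted p = 1.11e-08). Vps25, also of ESCRT-II, was at 89.9 ± 6.08 FPKM in Gsdmd-/- and 60.5 ± 2.1 FPKM in WT (log2 change 0.56, adjusted p = 4.99e-07). Vps28, a core subunit of ESCRT-I, was at 92.9 ± 3.33 FPKM in Gsdmd-/- and 53 ± 4.41 FPKM in WT (log2 change 0.80, adjusted p = 1.07e-07). With the trend removed these 3 rose by 0.35, 0.14 and 0.35. Mvb12a, another ESCRT-I subunit, rose by 0.51 as deposited and was at -0.000774 with the trend removed (adjusted p = 0.984). Vps25 shares 1103 exon bases with Ramp2 and Vps28 85 with Tonsl, each on the same strand, so their values are uncertain.

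In the other groups, Stam, an ESCRT-0 gene whose protein binds ubiquitinated receptors, fell to 4.14 ± 0.414 FPKM in Gsdmd-/- samples, against 6.9 ± 0.263 FPKM in WT (log2 change -0.62, limma adjusted p = 4.79e-06; -0.23 after trend removal). Usp8, which encodes a deubiquitinase that binds STAM, fell to 20 ± 0.941 FPKM in Gsdmd-/- samples, against 32.8 ± 1.06 FPKM in WT (log2 change -0.69, adjusted p = 5.71e-08, and -0.27 with the trend removed). Both thus kept their direction at a smaller size. Mitd1, which binds ESCRT-III during cell division, rose by 0.26 (adjusted p = 1.06e-05, and 0.23 with the trend removed), did not pass in TPM (0.04, adjusted p = 0.337) and shares 262 exon bases with Lipt1 on the other strand. Chmp6, which links ESCRT-II to CHMP4, rose by 0.41 as deposited (adjusted p = 1.25e-05) and was at -0.19 with the trend removed (adjusted p = 0.00967), where its direction turned.

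By complex, with the 10 members counted in, 6 of 10 tested ESCRT-III genes rose and 2 fell as deposited, against 3 and 1 after trend removal. Over all tested genes 40.6% rose and 36.9% fell as deposited, against 33.6% and 31.4% after trend removal, and nothing particular to a complex is read from such small counts. Of 8 tested ESCRT-I genes 2 rose and 1 fell, against 3 and 3 after trend removal. Of 3 ESCRT-II genes 2 rose and 0 fell, against 3 and 0. Of 3 ESCRT-0 genes 1 rose and 2 fell, with and without the trend. Of 3 genes of VPS4 and its cofactor 2 rose and 1 fell, against 3 and 0 after trend removal. Of 4 genes of ALIX and related proteins 2 rose and 1 fell, against 1 and 0, of 4 partners of ESCRT-III 3 rose and 1 fell on both scales, and of 2 deubiquitinase genes 1 rose and 1 fell on both. Chmp1b, the paralogue of Chmp1a, was named after its values were seen: it was at 35.2 ± 2.6 FPKM in Gsdmd-/- and 44.7 ± 0.717 FPKM in WT samples (log2 change -0.34, limma adjusted p = 4.68e-05), and at -0.00 with the trend removed (adjusted p = 0.972).

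**Figure D5:**
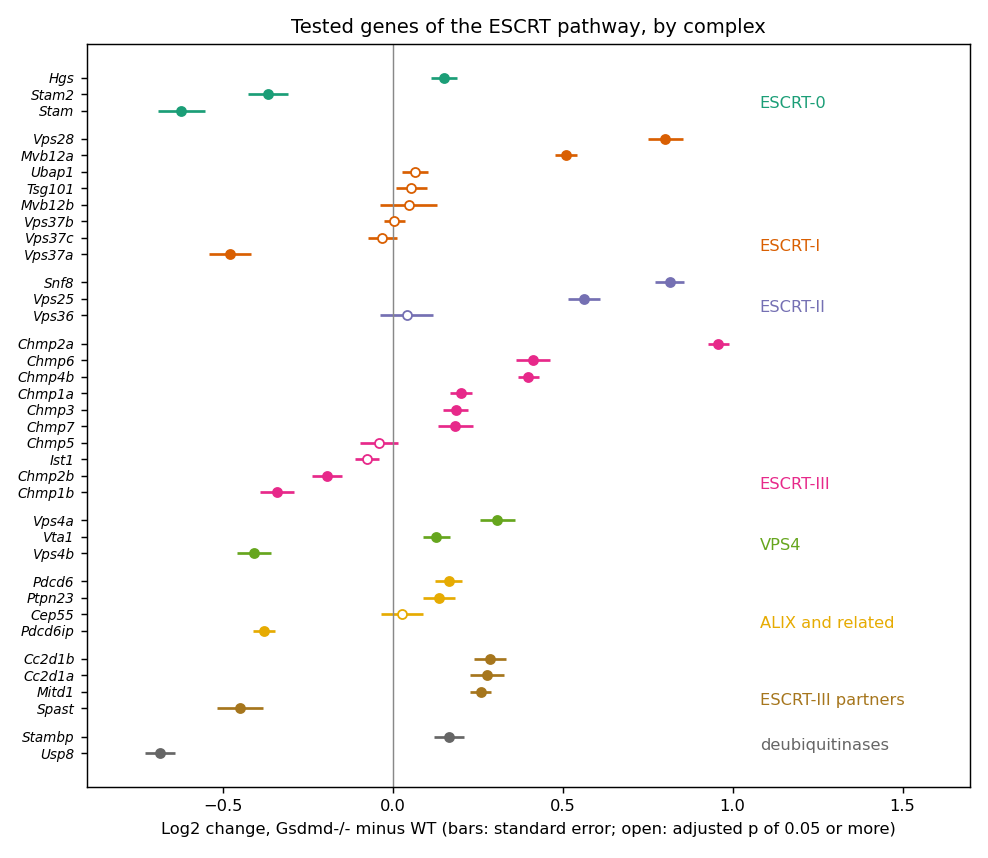
Log2 change (Gsdmd-/- minus WT, with standard errors) of the 37 tested genes of the ESCRT pathway, grouped by complex, filled where the limma adjusted p was under 0.05. ESCRT-II genes lie right of 0, 2 of 3 ESCRT-0 genes lie left of it, and the other groups hold genes on both sides.

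Calcium-triggered repair by annexins, dysferlin-like proteins and lysosome exocytosis is a second route by which wounded cells reseal. Of 24 listed genes 21 were tested, 10 rose and 7 fell, with a median log2 change of 0.04, where 40.6% of all tested genes rose and 36.9% fell. After removal of the trend 8 of 20 genes were called higher and 6 lower, where 33.6% and 31.4% of all genes were. These counts are near the background. Dysf, Syt7 and Trim72, known for repair in muscle and for lysosome exocytosis, were at or under 0.34 FPKM in every sample and did not enter the test.

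Annexin A2 and its partner were among the abundant genes of this list. Anxa2, which encodes an annexin that binds wounded membrane, was at 645.9 ± 6.25 FPKM in Gsdmd-/- and 413.9 ± 4.93 FPKM in WT macrophages (SD, n = 3 each, log2 change 0.64, limma adjusted p = 1.2e-09; 0.25 after trend removal). S100a10, its binding partner, was higher by 0.51 as deposited and missed the threshold once the trend was removed (0.03, adjusted p = 0.163). Anxa6 rose by 0.44, and by 0.41 with the trend removed. Capns1, the small subunit of calpain, rose by 0.70 and Stx4a, a plasma membrane SNARE gene, by 0.50, and by 0.39 and 0.24 with the trend removed.

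Other genes of this list fell. Myof, which encodes the dysferlin relative myoferlin, was at 27.8 ± 1.56 FPKM in Gsdmd-/- and 48.1 ± 1.95 FPKM in WT macrophages (log2 change -0.77, limma adjusted p = 3e-08; -0.40 after trend removal). Asah1, which encodes acid ceramidase of the lysosome, was at 93.9 ± 0.668 FPKM in Gsdmd-/- and 142.5 ± 2.19 FPKM in WT (log2 change -0.60, and -0.70 with the trend removed). Vamp7, a SNARE gene of lysosome exocytosis, fell by 0.63 on the log2 scale and had no transcript length in the annotation used.

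Of genes that form pores or rupture the membrane, Casp4, whose protein cleaves gasdermin D, rose by 0.57 on the log2 scale. Mlkl, the pore former of necroptosis, rose by 0.24 (0.02 in TPM, adjusted p = 0.701), and Gsdme, another gasdermin, by 0.43 from near the filter, at 1.65 to 1.83 FPKM in Gsdmd-/- and 0.93 to 1.12 FPKM in WT samples. Ninj1, whose protein ruptures the plasma membrane in dying cells, was at 247.6 ± 9.09 FPKM in Gsdmd-/- and 197.2 ± 10 FPKM in WT samples (log2 change 0.33, limma adjusted p = 1.03e-05), and its direction turned with the trend removed (-0.11, adjusted p = 0.0104). Mpeg1, a pore-forming protein gene of macrophages, fell by 0.62 as deposited and was at -0.18 with the trend removed. Casp1, whose protein also cleaves gasdermin D, rose by 0.20, and by 0.32 after trend removal; in TPM it was at -0.02. Gsdma and Prf1 were at or under 0.07 FPKM in every sample and did not enter the test, and Gsdmc and Gsdmc2 were not analysed here.

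The tested genes whose levels followed Chmp2a most closely over the 6 samples were Cox4i1, Pmm2 and Cndp2, with Pearson correlations of 0.9998, 0.9997 and 0.9996. As many as 715 of 10004 genes reached 0.99 with Chmp2a, and all were compared over the same 2 groups, so this is a description only.

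Some values may include reads of other genes. Vps4a shares 57 exon bases with Pdf and Chmp3 shares 96 with 1700040L08Rik, each on the other strand; whether counting used strand is not known. Anxa2 (98 bases), Capns1 (202), Stx4a (124) and Chmp1b (605) likewise share exon bases with a gene on the other strand. Processed pseudogenes with at least 90% identity over at least 150 bases were annotated for 6 of the 10 genes: Chmp1a, Chmp2a, Chmp3, Tsg101, Vps4a and Vps4b. The longest match to Chmp2a, of Gm8185, covered 669 bases at 94% identity. None of the 8 pseudogenes has a row in the tables, so how reads were split between gene and copy was not analysed here.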

How the data were processed

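Levels were measured by RNA sequencing on the BGISEQ-500 in 3 Gsdmd-/- and 3 WT samples, grouped by the genotype label and numbered by their titles. The submitters' processing notes name Bowtie2 2.2.5 and GRCm38.p6; which program, annotation, strand setting and filters gave gene values is not known here. No unit stands in the deposited tables. FPKM was inferred for the deposited values: column sums vary by sample, and low values rise by fixed steps that shrink with longer transcripts. These steps gave the rough depths and fragment numbers, which cover counting only.

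Genes with at least 1 FPKM in at least 3 samples were tested on log2(FPKM + 1) with limma 3.58.1 (trend and robust) in R 4.3.3, Gsdmd-/- minus WT, with Benjamini-Hochberg adjustment over all tested genes and a threshold of 0.05. The pseudocount understates changes of low genes. Transcript length and GC were means over GENCODE M21 coding transcripts, found for 98.5% of tested genes, and their trend (natural splines, 5 degrees of freedom each) was removed per sample as an alternative. Other alternatives were pseudocount, filter, scaling, replicate block, limma settings and leaving out each sample. Scripts were tested on simulated data, for the depths only with true values inside the range searched.

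Of 25 symbols turned into dates, 25 were restored by identifier. Coordinates and promoter windows are from RefSeq (GRCm38.p6), and all 10 genes matched. Named are all 10 genes, the 8 with the smallest p of each other pathway list, genes of those lists that were not tested, and all tested pore genes, plus the 3 genes best correlated with the member of largest change. The grouping by complex was added after the values were seen. The genes and lists were chosen with earlier results of these data known.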

Additional observations from a re-analysis of the deposited data

How the results depend on the processing

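Leaving out any 1 sample kept the calls of all 10 ESCRT genes. The widest range over these fits among the 8 that passed was 0.27 to 0.36 for Vps4a, and the ratios ranged from 1.1 to 1.19 for Chmp2a to Chmp2b and from 0.68 to 0.77 for Vps4a to Vps4b. Chmp5, which passed in none, ran from -0.1 to 0.02. Scale and the length and GC trend changed calls. In TPM, 2 ESCRT genes were called higher and 5 lower, of the other ESCRT genes 5 and 10, and of the calcium-triggered repair genes 6 and 11. Over all tested genes 25.0% were called higher and 51.0% lower in TPM. Quantile normalization called 11 of the calcium-triggered repair genes lower, beside 3619 of all 10005 tested genes. TPM also changed the sign of Chmp1a (-0.02), Chmp3 (-0.03), Tsg101 (-0.17) and Casp1 (-0.02), of which only Tsg101 passed there. Quantile normalization changed the sign of Casp1 (-0.04), which did not pass. With the trend removed 1 ESCRT gene was called lower, beside 31.4% of all tested genes. The ratio differences were then 0.5 (Chmp2a to Chmp2b) and 0.2 (Vps4a to Vps4b). Among the genes named by the rule above, Chmp3 (-0.04), Tsg101 (-0.18), Vps4b (0.11), Pdcd6ip (0.00251), Mvb12a (-0.000774), Chmp6 (-0.19) and Ninj1 (-0.11) changed sign. Of these, Chmp3, Pdcd6ip and Mvb12a did not pass with the trend removed. Genes outside that rule are not listed here. For example, Vps37a of ESCRT-I went from -0.48 (limma adjusted p = 1.72e-05) to 0.18 (adjusted p = 0.0178). The cause of these shifts was not tested.

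The labels do not say whether equal replicate numbers pair the samples. Same-numbered samples had correlations of their deviations from group means of -0.0818, 0.132 and 0.0143. Samples of different numbers had correlations from -0.166 to 0.16. With 3 samples a group these values cannot show whether the samples were paired. With the number as a replicate block, 5 ESCRT genes were called higher and 3 lower as without it, of the other ESCRT genes 14 and 7, and of the repair genes 10 and 7. Of all 10005 tested genes 4095 were called higher and 3706 lower with the block. With the block fitted and the trend removed, 1 ESCRT gene was called lower, beside 3091 of 9853 tested genes. The same 7 named genes changed sign at the values given above, and Chmp3, Pdcd6ip and Mvb12a again did not pass. Filter, pseudocount, median ratio scaling and limma settings changed no count of calls by over 1.5 times. Genes near the filter, such as Gsdme, rest on few fragments.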
